A study of Mus musculus with 10 samples.

Results

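Usp2 encodes ubiquitin-specific peptidase 2, a deubiquitinase, and is described here across the day, across the liver lobule and between single hepatocytes. It was taken as the usp2 row of the deposited tables of unique molecular identifier (UMI) counts, 1 gene of 14812 gene entries, and it was picked because earlier work on these same data showed its level changing with time of day. Its levels over time are therefore given as a description with no test, while its position in the lobule and its spread between cells within libraries were not part of the choice. The tables held 18378 single hepatocytes in 10 libraries made with the 10x Genomics 3' version 2 kit, which tags each captured mRNA molecule near its 3' end. All animals were C57BL/6 male mice 3 months old on ordinary chow without restriction, with no genetic alteration or treatment beyond ketamine and xylazine anaesthesia, and livers were dissociated by collagenase perfusion and a Percoll gradient. Groups were set by Zeitgeber time (ZT), counted in hours: ZT0 (libraries A, B and C), ZT6 (A and B), ZT12 (A, B and C) and ZT18 (A and B). They also differed in the column of the 10x sample index, described below. How many animals went into a library is not labelled, so p-values measure only the spread between these libraries, which may be technical.

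Deubiquitinases remove ubiquitin, the small protein tag that marks others for degradation, and so stabilise or re-route their targets. USP2 is a cysteine protease of the ubiquitin-specific family, and in several tissues its mRNA is a known output of the circadian clock, the feedback loop in which CLOCK and BMAL1 drive their own repressors. Reported substrates or partners include the clock proteins BMAL1, PER1 and CRY1, cyclin D1, the p53 regulators MDM2 and MDMX, and fatty acid synthase. The liver lobule is the tissue unit in which blood flows from portal vessels to a central vein, and hepatocytes near each end (periportal and pericentral) carry out different metabolic tasks.

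The gene lies on chromosome 9 at chr9:44067021-44095627 on the plus strand (GRCm38, GENCODE M21 annotation), which lists 9 transcripts. Usp2-201 starts at base 44067021, whereas the shorter Usp2-202 starts at base 44084939 inside the gene, and the long and short forms are known to differ at the amino end of the protein and to share its catalytic part. Reads from the 3' end cannot assign a UMI to the long or short forms, and all Usp2 values below are sums over transcripts. The RefSeq promoter table (GRCm38.p6) places its start for Usp2 at base 44084920, next to the start of the short form. That promoter is printed because Usp2 changed over the day, beside the promoter of Per1, a clock repressor that also peaked near the start of darkness. Both are 5′ to 3′ and end on the start base. The printed Usp2 stretch is chr9:44084670-44084920 on the plus strand of GRCm38.p6, and that of Per1 is chr11:69098699-69098949 on the plus strand of the same build.
Usp2 promoter: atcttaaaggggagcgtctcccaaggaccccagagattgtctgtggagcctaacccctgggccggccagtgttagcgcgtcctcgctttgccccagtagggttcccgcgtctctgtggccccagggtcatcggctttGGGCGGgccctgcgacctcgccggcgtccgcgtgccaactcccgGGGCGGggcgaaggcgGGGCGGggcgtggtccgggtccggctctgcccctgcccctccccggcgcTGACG
Per1 promoter: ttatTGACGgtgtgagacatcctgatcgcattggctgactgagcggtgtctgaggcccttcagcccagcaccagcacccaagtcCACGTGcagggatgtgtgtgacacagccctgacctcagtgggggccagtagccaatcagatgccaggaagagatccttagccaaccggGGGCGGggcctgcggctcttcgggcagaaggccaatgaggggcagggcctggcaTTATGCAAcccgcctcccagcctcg
Capitals in the Usp2 promoter mark GGGCGG (GC box), starting at -113, -69 and -53 with the start base as 0, and TGACG (a partial cyclic AMP response element), starting at -4. Capitals in the Per1 promoter mark TGACG at -246, the E-box CACGTG at -166, GGGCGG at -78 and the D-box TTATGCAA at -24, so both promoters hold GC boxes. Each motif was searched on both strands of all 32851 promoter windows of 300 bases. GGGCGG was in 35.7% of them and TGACG in 20.8%, so both matches in Usp2 are common. The E-box was in 7.15% of windows. The D-box (written as TTATGTAA, as its variant TTACGTAA, or as the Per1 form above) was in 1.78%. The full cyclic AMP element TGACGTCA was in 1.79% of the windows searched. The ROR element TAGGTCA was in 2.61%, and the TATA box, searched as TATAAA, was in 13.6%. None of these 5 was in the 300-base window of Usp2, which runs past the start base and is longer than the stretch printed. Among clock genes with a promoter searched, Nr1d1, Nr1d2, Dbp, Hlf, Cry2, Rora, Arntl, Nfil3 and Clock likewise held neither an E-box nor a D-box. Tef and Cry1 held an E-box, Per3 held D-boxes and Per1 held both motifs. The stretch printed for Usp2 held 71.7% G and C, against a median of 52.2% over the same positions of all promoters. A match is letters only, and the files hold no binding data.

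Each library held 710 to 2860 cells and 1454623 to 7144803 UMIs, with a median of 1588 to 2662 UMIs per cell. Alb, the hepatocyte product albumin, had a UMI in 99.989% of cells and Hnf4a, a hepatocyte transcription factor, in 38.312%. Of the Kupffer cell markers Clec4f and Csf1r had 0 UMIs, and Cd68, Marco and Adgre1 had 13, 16 and 2 over all cells. Of the lymphocyte markers Cd3e, Cd3d, Cd79a and Nkg7 had 0 and Ptprc 15. Of the endothelial markers Clec4g had 0, Lyve1 7, Kdr 59, Stab2 122 and Pecam1 190 (1.007% of cells), and the stellate cell gene Dcn had 172 (0.805% of cells). Of the bile duct cell markers Epcam had 3 UMIs, Krt19 2 and Krt7 3 over all cells, whereas Sox9 had 565. Sox9 ranged from 0.773 to 32.289 CPM (UMIs of a gene per 1000000 UMIs of the library) between libraries, and the red cell gene Hbb-bs from 0.338 to 142.006 CPM. Their part in the Usp2 values was not tested. No cell of 1 library was identical to a cell of another. The tables carry no cell barcodes, so barcodes shared between libraries could not be counted.

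Usp2 was lowest at ZT0, intermediate at ZT6 and ZT18, and highest at ZT12, the time of lights off in a standard light cycle. Over all libraries 1251 Usp2 UMIs were counted, 937 of them at ZT12. At ZT0 Usp2 stood at 7.68, 3.27 and 5.40 CPM in libraries A, B and C. At ZT6 it stood at 11.8 CPM in A and 17.8 in B, and at ZT18 at 19.2 CPM in A and 13.7 in B. At ZT12 it stood at 70.1, 87.3 and 105.9 CPM in A, B and C. Every ZT12 library lay above every library of the other times, and every ZT0 library lay below them. ZT6 and ZT18 overlapped, and these neighbours in the order did not differ beyond their spread. Group means were 5.45 ± 2.21 CPM at ZT0 (SD, n = 3), 14.8 ± 4.23 at ZT6 (SD, n = 2), 87.8 ± 17.9 at ZT12 (SD, n = 3) and 16.5 ± 3.84 at ZT18 (SD, n = 2).

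**Figure D1:**
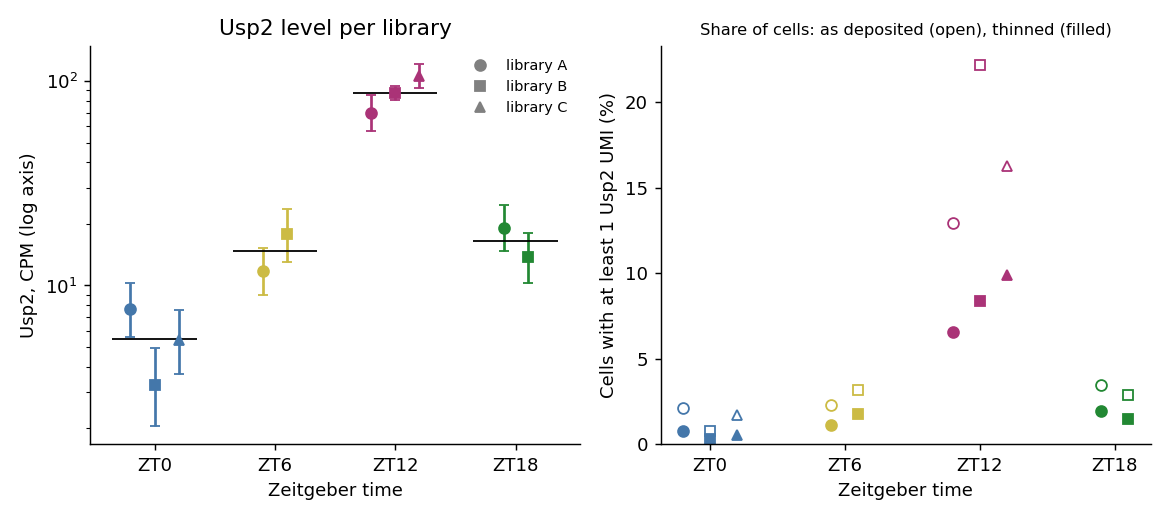
Left, Usp2 in each library in CPM on a log axis against Zeitgeber time, with exact 95% Poisson intervals as bars and group means as lines. Right, the share of cells with at least 1 Usp2 UMI, as deposited (open) and after thinning every cell to 1000 UMIs (filled). The ZT12 libraries, at 70.1 to 105.9 CPM, sit above all others in both panels.

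Counting error was small beside these differences at ZT12 and large at ZT0. The 624 Usp2 UMIs of ZT12 library B gave 87.3 CPM with an exact 95% Poisson interval of 80.6 to 94.5. The 22 UMIs of ZT0 library B gave 3.27 CPM with an interval of 2.05 to 4.95. These intervals cover counting error only. ZT0 libraries A and B, whose intervals (5.58 to 10.3 and 2.05 to 4.95 CPM) did not meet, thus differed by more than counting error, so libraries of 1 time also differed from each other.

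The ratio of mean levels was 16.1 between ZT12 and ZT0, 5.94 between ZT12 and ZT6, and 5.33 between ZT12 and ZT18. ZT6 stood 2.71 times and ZT18 stood 3.02 times above ZT0. In the edgeR fit over all libraries Usp2 was higher at ZT12 than at ZT0 by 3.86 ± 0.31 (SE) on the log2 scale, with a 24-h amplitude (mean to peak) of 1.97 and a fitted peak at ZT 12.23. With samples only every 6 h, the peak hour comes from the cosine shape, which the data cannot check between sampled times. The amplitude ranked 46th of 8908 genes fitted. The library labels give a 10x sample index, and same-lettered libraries of ZT0 and ZT12 share its column number. Within columns, ZT12 stood 9.13 times above ZT0 for the A libraries, 26.7 times for the B libraries and 19.6 times for the C libraries. Both ZT6 libraries share the column of the B libraries of ZT0 and ZT12. The ZT18 libraries share a column that no other time has, so that column and ZT18 cannot be told apart. With the index column as a block in the fit the ZT12 minus ZT0 difference of Usp2 was 3.90 ± 0.28 (SE). In every fit with that block the ZT18 libraries inform only the spread. The 24-h course then rests on ZT0, ZT6 and ZT12, so its p-values are not a like check of the main ones.

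The share of cells that yielded a Usp2 UMI followed the same order of times as the level. At ZT0 the share of cells with at least 1 Usp2 UMI was 1.54 ± 0.692% (SD, n = 3), at ZT6 2.76 ± 0.624% (SD, n = 2), at ZT12 17.1 ± 4.68% (SD, n = 3) and at ZT18 3.16 ± 0.426% (SD, n = 2). The deepest ZT12 library, B, had the highest share (22.2%), and library A had 13.0% and C 16.2%. After thinning every cell to 1000 UMIs, which left out no cell, the means were 0.545 ± 0.210%, 1.46 ± 0.465%, 8.27 ± 1.66% and 1.70 ± 0.337% in the same order of times. Thinning thus put ZT12 library C above B, matching their order in CPM. No cell type lacking Usp2 was present in these hepatocyte tables, so the share that free RNA in droplets would give was not measured, and the ZT0 share was not separated from it.

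Within ZT12, Usp2 UMIs were spread over cells much as random sampling from 1 shared level would spread them. Of 4318 ZT12 cells, 723 had 1 Usp2 UMI, 92 had 2 and 10 had 3, and no cell had more. Cells with at least 2 numbered 102, against 103.0 expected if every cell of a library had the same Usp2 rate per UMI. By library they numbered 9 against 7.95 in A, 68 against 76.2 in B and 25 against 18.8 in C. The close match of the sums thus joins departures in opposite directions. The expected share of cells with a UMI was 13.2%, 21.8% and 16.7% for ZT12 libraries A, B and C, beside observed shares of 13.0%, 22.2% and 16.2%. The excess variance between cells, as a squared coefficient of variation after counting noise, was 0.210 in A, -0.108 in B and 0.184 in C. These values lay on both sides of 0, with the deepest library below it, and carry no error estimate. In the same libraries Alb, with far more UMIs, had 0.377, 0.134 and 0.332, and the clock gene Tef -0.180, 0.157 and 0.271. Whether Usp2 varies between cells by such amounts was not tested. Most ZT12 cells had no Usp2 UMI, yet no separate group of high-Usp2 cells was detectable at this depth. At ZT0, ZT6 and ZT18 only 1, 2 and 3 cells had at least 2 UMIs, against 1.08, 1.60 and 2.11 expected, too few to describe a spread.

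**Figure D2:**
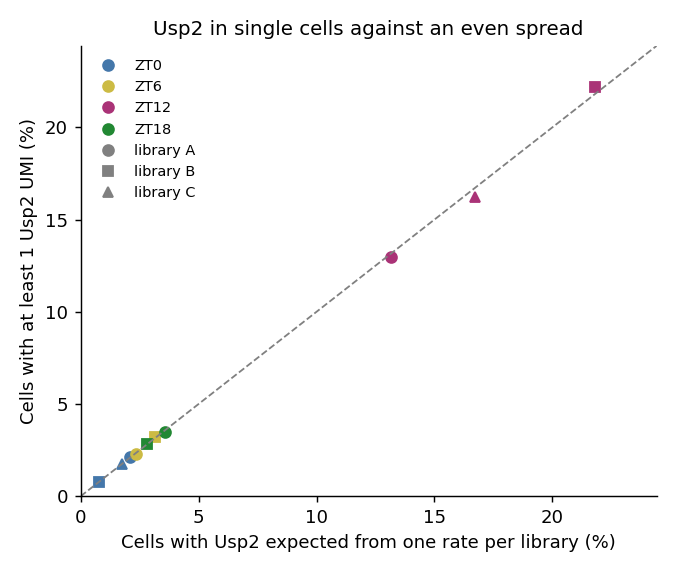
Observed share of cells with at least 1 Usp2 UMI (percent, vertical) against the share expected from 1 Usp2 rate per library and each cell's depth (percent, horizontal), 1 point per library; the dashed line marks equality. All 10 points lie near the line, including ZT12 library B at 22.2% observed and 21.8% expected.

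Between the deeper and the shallower cells of a library, the difference in Usp2 as log2(CPM + 1) was -0.08 ± 0.28 over all 10 libraries and -0.01 ± 0.07 over the 5 of ZT6 and ZT12 (SD). Both ZT18 libraries were lower in their deeper cells, at 16.1 against 24.7 CPM in A and 12.2 against 16.4 in B. Between cells with a high and a low mitochondrial share the difference was -0.09 ± 0.26 over all 10 libraries and -0.19 ± 0.30 over those 5 (SD). Both splits were added after the data were seen and are given as values only.

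Position in the lobule was read from 16 landmark genes, 8 periportal and 8 pericentral, and cells of each library were cut into 3 equal zones along the resulting order (pericentral, middle and periportal). Usp2 showed no detectable difference between the ends. Over all times Usp2 was lower in the periportal zone by only -0.10 ± 0.13 (SE) on the log2 scale (edgeR, Benjamini-Hochberg adjusted p = 0.658), with an interval of 2 SE from -0.35 to 0.16. As folds, that interval spans 0.783 to 1.12. The test called 2194 of 8907 genes, 24.6% (11.9% higher periportally and 12.7% higher pericentrally), so it found position differences in other genes. That share spans genes of all count levels and does not show what the test would find at the counts of Usp2. A p above the threshold does not show that Usp2 is even along the lobule, and the interval gives the sizes of difference these libraries leave possible.

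At ZT12 the pericentral, middle and periportal zones held 93.2 ± 12.9, 86.0 ± 9.72 and 85.8 ± 30.8 CPM of Usp2 (SD, n = 3), from 313, 297 and 327 UMIs. The periportal spread came from the libraries going different ways, since A fell from 84.9 to 54.4 CPM between the ends, B stayed at 86.6 and 87.0, and C stood at 108.1 and 116.0. The fitted ZT12 difference was 0.03 ± 0.15 (SE) on the log2 scale, with an interval of 2 SE from -0.28 to 0.33 (edgeR, Benjamini-Hochberg adjusted p = 0.960; 9.83% of genes were called at ZT12). Cutting the cells into 8 layers gave ZT12 means between 71.8 and 102 CPM with no steady course.

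At ZT0 Usp2 was low in every zone, and its difference between the ends did not pass the adjusted test. The 3 zones held 6.85 ± 1.96, 5.74 ± 2.37 and 3.65 ± 2.85 CPM (SD, n = 3), from 43, 32 and 23 UMIs, and Usp2 was lower periportally in 3 of 3 libraries. The fitted difference was -0.82 ± 0.37 (SE) on the log2 scale with an unadjusted p = 0.0313, which did not pass after adjustment over all genes (edgeR, Benjamini-Hochberg adjusted p = 0.155; 13.2% of genes were called at ZT0). Usp2 differed by 0.20 ± 0.35 at ZT6 (edgeR, Benjamini-Hochberg adjusted p = 0.853; 6.88% called). At ZT18 it differed by -0.37 ± 0.35 (edgeR, Benjamini-Hochberg adjusted p = 0.677; 6.35% called).

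**Figure D3:**
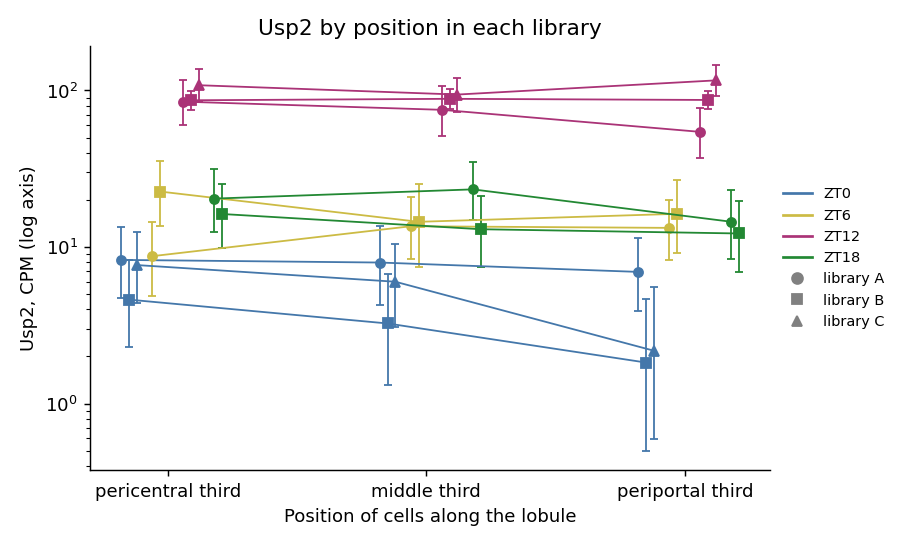
Usp2 in CPM on a log axis in the pericentral, middle and periportal zone of each library, with exact 95% Poisson intervals; lines join the zones of 1 library, colours mark the time and shapes the library. The ZT12 lines stay between 54.4 and 116.0 CPM, above those of all other times in every zone.

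The daily difference was present at every position, and its size did not differ detectably between positions. ZT12 means stood 13.6 times above ZT0 means in the pericentral zone, 15.0 times in the middle and 23.5 times in the periportal zone. The test of whether the difference between the ends follows a 24-h course gave an amplitude of 0.44 on the log2 scale for Usp2 (edgeR, Benjamini-Hochberg adjusted p = 0.834; 3 of 8907 genes, 0.0337%, were called). With 1 free value per time it gave an adjusted p = 0.894 (edgeR, Benjamini-Hochberg; 6 genes, 0.0674%). Taken library by library, the periportal minus pericentral difference in log2(CPM + 1) was -0.39 ± 0.56 (SD, n = 10), above 0 in 3 of 10 libraries, with p = 0.0547 in a two-sided exact sign-change permutation test whose smallest possible p is 0.00195. This mean weights the sparsely counted ZT0 and ZT18 libraries as much as ZT12, and with a pseudocount of 5 CPM it shrank to -0.26 ± 0.36 (SD) at the same exact permutation p = 0.0547.

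Usp2 was also compared between cells of 1 library with and without a UMI of Dbp, a clock-driven transcription factor that binds D-boxes, after thinning every cell to 1000 UMIs. In ZT12 library B, the best counted, 338 Dbp-positive cells held 33 Usp2 UMIs (97.6 CPM) and 2131 Dbp-negative cells held 180 (84.5 CPM). The log2 difference was 0.23 there, 0.43 in ZT12 library A and 0.15 in ZT6 library A, but -1.20 in ZT12 library C and -1.25 in ZT6 library B. Outside ZT12 library B these ratios rest on few UMIs. Dbp-positive cells held 5 Usp2 UMIs in ZT12 library A, 3 in ZT6 library A, 6 in ZT12 library C and 1 in ZT6 library B. Over the 5 libraries of ZT6 and ZT12 the log2 difference averaged -0.33 ± 0.83 (SD), above 0 in 3 of 5. The two-sided exact sign-change permutation p was 0.5, and 5 libraries cannot give a p below 0.0625. Usp2 thus showed no difference beyond the spread between libraries in either direction. Over all 10 libraries the mean was 1.68 ± 2.52 (SD), above 0 in 8 of 10, with an exact permutation p = 0.0684. That value rests on the ZT0 and ZT18 libraries, where 3 to 12 cells had a Dbp UMI and held at most 1 Usp2 UMI, so that the 0.5 UMI added to each sum set the ratio. Without ZT6 library B or without ZT12 library C the exact permutation p fell to 0.0391, and with cells as deposited, before thinning, the mean was 0.18 ± 0.81.

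The genes whose profile over the 10 libraries lay closest to that of Usp2 included secreted, membrane and metabolic proteins, and no core clock gene was among the closest 10. Likeness was the root mean square difference between standardised log2(CPM + 1) values, where 0 is an identical course. Over the 8907 other genes the median distance was 1.30 and the closest 1% lay below 0.534. The 10 closest were Nrg4 (0.250), a secreted ligand of the epidermal growth factor family; Abhd17b (0.256), a depalmitoylating enzyme; Mfsd2a (0.259), a lysophospholipid transporter; and Dact1 (0.263), a regulator of Wnt signalling. They went on with St3gal5 (0.270), the GM3 ganglioside synthase, Gna12 (0.272), a G protein subunit, and Vdac2 (0.326), a channel of the outer mitochondrial membrane. Slc5a6 (0.329), a vitamin transporter, Lpin1 (0.335), a phosphatidate phosphatase, and Ak4 (0.342), a mitochondrial adenylate kinase, closed the set. The measure ignores the size of change: Vdac2 went from 68.9 ± 2.25 CPM at ZT0 to 95.3 ± 8.05 at ZT12 (SD, n = 3 each). Lpin1 went from 43.9 ± 4.94 to 637 ± 205 CPM and Mfsd2a from 3.90 ± 1.99 to 75.6 ± 23.5 CPM between the same times (SD, n = 3 each). These genes were picked for likeness in these same libraries, so their courses are a description.

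**Figure D4:**
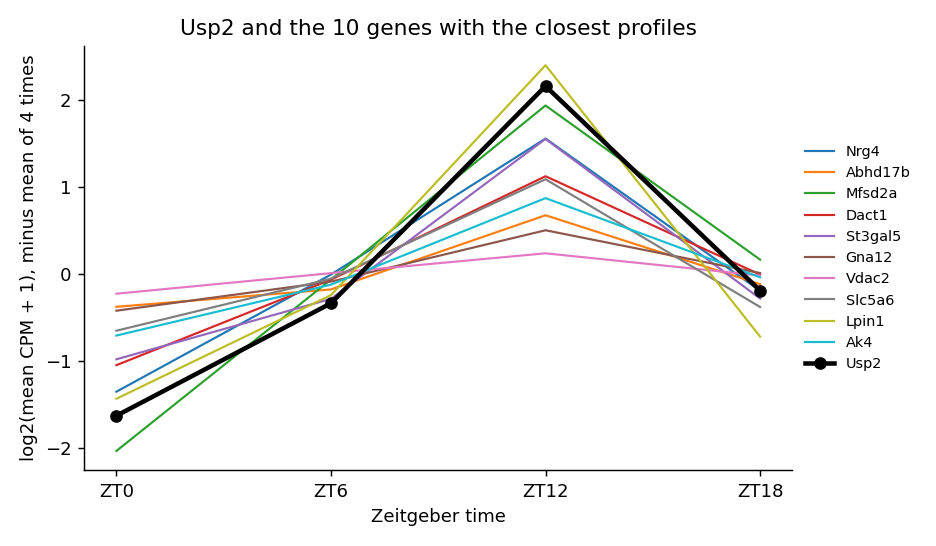
Log2(mean CPM + 1) at each Zeitgeber time, minus its mean over the 4 times, for Usp2 (black) and the 10 genes closest to it in profile (colours). All 11 lines peak at ZT12, with Usp2 among the steepest and Vdac2 the flattest.

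Position in the lobule was not used by the likeness. Of the 10, 7 were higher periportally (edgeR, Benjamini-Hochberg adjusted; 11.9% of all genes were), among them Nrg4 by 2.39 ± 0.25 (adjusted p = 2.1e-09), Mfsd2a by 2.07 ± 0.18 (adjusted p = 2.6e-11) and Ak4 by 1.36 ± 0.15 (SE; adjusted p = 5.9e-09). Abhd17b, at 0.14 ± 0.11, Gna12, at -0.10 ± 0.09, and Slc5a6, at -0.13 ± 0.23 (SE), did not pass, like Usp2 at -0.10 ± 0.13. The difference between Usp2 and each of these genes was not itself tested.

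Of 18 listed clock genes 16 had enough counts for the 24-h test and 13 passed it (edgeR, Benjamini-Hochberg adjusted), where 5.14% of all genes tested passed. Per1, Per3, Hlf and Tef lay closest to Usp2, at ranks 22, 31, 34 and 38 by profile distance. Per3, a repressor, stood at 2.10 ± 0.40 CPM at ZT0 and 31.9 ± 7.21 at ZT12 (SD, n = 3 each), and Per1 at 3.40 ± 1.57 and 22.2 ± 5.73 CPM (SD, n = 3 each). Tef, a D-box binding factor, went from 16.2 ± 2.55 CPM at ZT0 to 114 ± 8.96 at ZT12 (SD, n = 3 each). Dbp was as high at ZT6 as at ZT12, at 119 ± 12.2 (SD, n = 2) and 119 ± 41.1 CPM (SD, n = 3), whereas Usp2 at ZT6 was at 14.8 CPM of its 87.8 at ZT12. Dbp lay at rank 242, Cry2 at 388 and Nr1d1, a repressor with a fitted peak at ZT 7.03, at 3976. Clock, Nfil3 and Arntl, which encodes BMAL1, were low when Usp2 was high and lay at ranks 8874, 8873 and 8778 of 8907. Per2 (edgeR, Benjamini-Hochberg adjusted p = 0.0536, or 0.00637 with the index column as a block), Rora and Bhlhe40 did not pass the 24-h test. The call of Cry1 was lost on leaving out any single library except ZT12 A and ZT18 B (adjusted p up to 0.147), that of Cry2 except ZT0 B and ZT12 A (up to 0.0795) and that of Hlf except ZT0 C and ZT12 B (up to 0.0869). The call of Clock was lost without ZT12 library B (adjusted p = 0.0690, edgeR, Benjamini-Hochberg).

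Most clock genes, like Usp2 and like most genes tested, did not pass the test between the ends of the lobule. Of 17 clock genes tested for position 3 passed, where 24.6% of all genes passed. Cry1 was higher periportally by 0.59 ± 0.12, Rora by 0.49 ± 0.07 and Bhlhe40 by 0.24 ± 0.08 (SE), where 11.9% of all genes were higher periportally. Their adjusted p-values were 3.4e-04, 2.3e-06 and 0.0294 (edgeR, Benjamini-Hochberg), and the Bhlhe40 call was lost without ZT0 library B or C, ZT6 library A or ZT18 library B (adjusted p up to 0.111). None of the 17 passed the test of a position difference that follows the day, which called only 0.0337% of all genes.

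The list of the class besides Usp2 held 100 gene names, with older and newer names of the same gene, such as Fam63a and Mindy1, counted separately. Relatives not known as active deubiquitinases, such as Psmd7 and Prpf8, were listed too and are counted as deubiquitinases here. Of these names 80 were in the tables and 67 were tested for a 24-h course. Of those tested 0 were called (edgeR, Benjamini-Hochberg, where 5.14% of all genes were). DESeq2 and limma-voom also called 0, and 2 had an unadjusted p under 0.05 in edgeR. Their median amplitude was 0.22, beside 0.25 over all genes tested. The 1.97 of Usp2 stands beside these as a value only, since Usp2 was chosen for its change over the day. Yod1, an enzyme of endoplasmic reticulum quality control, stood at 66.3 ± 26.7 CPM at ZT12 and 28.3 ± 9.85 at ZT0 (SD, n = 3 each), and its adjusted p was 0.248, or 0.00455 with the index column as a block (edgeR, Benjamini-Hochberg). Yod1 was named after its values were seen.

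Of 66 deubiquitinases tested for position, 13 were called, 3 higher periportally and 10 higher pericentrally. Over all genes tested 24.6% were called, 11.9% and 12.7% in those directions, so the class held no more position calls than genes at large. Otud7b, a regulator of NF-kappaB signalling, was higher periportally by 0.95 ± 0.15 (SE) and Usp12, a partner of WD-repeat cofactors, by 0.69 ± 0.17. Usp25 was lower periportally at -0.69 ± 0.10, Psmd14, the deubiquitinase of the proteasome lid, at -0.67 ± 0.09 and Usp46 at -0.65 ± 0.17 (SE). Their adjusted p-values ranged from 3.8e-07 for Psmd14 to 0.00422 for Usp46 (edgeR, Benjamini-Hochberg), and leaving out any 1 library kept all 5 calls. The count of 13 was sensitive to settings, with 7 called by DESeq2 and 18 with library size alone.

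**Figure D5:**
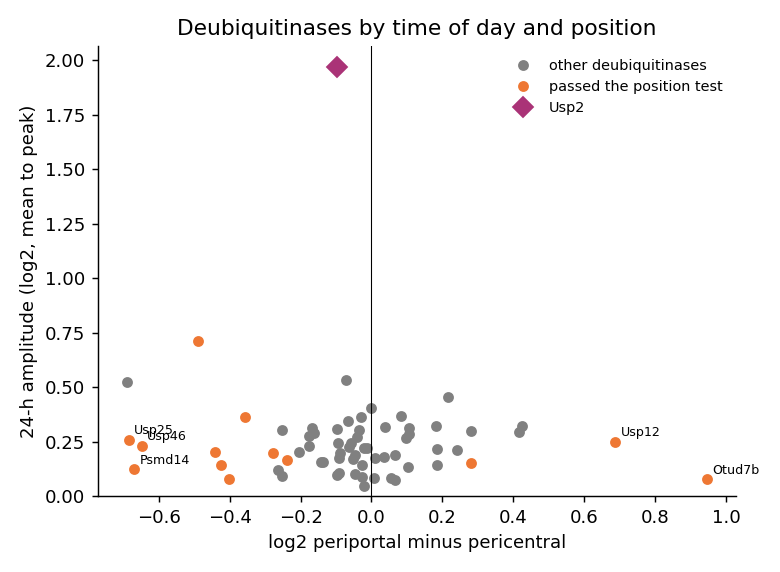
Each point is 1 deubiquitinase tested for both, by its log2 periportal minus pericentral difference (horizontal) and its 24-h log2 amplitude (vertical); orange points passed the position test. Usp2 (diamond), chosen for its change over the day, lies at an amplitude of 1.97 with a position difference of -0.10, and the 5 named genes lie at the sides.

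Of 11 reported USP2 substrates or partners, 9 had enough counts and 4 passed the 24-h test: Per1, Arntl, Cry1 and Fasn (edgeR, Benjamini-Hochberg adjusted; 5.14% of all genes passed). Per1, Arntl and Cry1 are also in the clock list counted above. Per1, like Usp2, was highest at ZT12 among the sampled times, with a fitted peak at ZT 10.3 beside 12.23 for Usp2. Arntl stood at 20.9 ± 8.51 CPM at ZT0 and 1.85 ± 1.37 at ZT12 (SD, n = 3 each), opposite to Usp2. Fasn, the fatty acid synthase gene, was highest at ZT18 at 620 ± 157 CPM (SD, n = 2), against 289 ± 50.7 at ZT12 (SD, n = 3). Its adjusted p of 0.0150 rose to 0.0996 at most without ZT6 library B or ZT18 library A, and was 0.0666 with the index column as a block (edgeR, Benjamini-Hochberg). In that block fit ZT18, its highest time, did not inform the 24-h course. Ccnd1, which encodes cyclin D1, stood at 13.5 ± 3.39 CPM at ZT0 and 48.4 ± 30.8 at ZT12 (SD, n = 3 each), with an adjusted p of 0.0536, or 0.0460 with the index column as a block (edgeR, Benjamini-Hochberg). Mdm2 and Mdm4, the p53 regulators, had amplitudes of 0.03 and 0.14 and did not pass. In position, among the members reported here, Cry1, Fasn and Egfr were higher periportally, where 11.9% of all genes were. Ccnd1 was lower periportally at -0.79 ± 0.19 (SE), where 12.7% of all genes were higher pericentrally. The Ccnd1 call was lost without ZT12 library B (adjusted p = 0.0581, edgeR, Benjamini-Hochberg). These are mRNA levels, whereas USP2 is known to act on proteins.

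A further list held genes of glucose output and glucocorticoid action, since hepatic USP2 has been tied to gluconeogenesis through Hsd11b1, the enzyme that regenerates active glucocorticoid. Of 11 tested, 3 passed the 24-h test: Pck1, a gluconeogenic enzyme, Ppargc1a, its coactivator, and Fkbp5, a glucocorticoid receptor target (edgeR, Benjamini-Hochberg adjusted; 5.14% of all genes passed). Pck1 went from 909 ± 145 CPM at ZT0 to 2988 ± 504 at ZT12 (SD, n = 3 each), and Fkbp5 from 12.5 ± 9.22 to 62.8 ± 8.74 CPM. Their fitted peaks were at ZT 10.2 for Pck1, 10.1 for Ppargc1a and 11.9 for Fkbp5, beside 12.23 for Usp2. Among the members that did not pass, fitted peaks ran from ZT 4.39 (Sgk1) to 20.2 (G6pc), with Cebpb at 12.2. G6pc, another gluconeogenic enzyme, stayed between 391 and 436 CPM on average, with an amplitude of 0.14 (edgeR, Benjamini-Hochberg adjusted p = 0.767). Hsd11b1 was lowest at ZT6, at 273 ± 3.43 CPM, and highest at ZT18, at 461 ± 9.34 (SD, n = 2 each). It stood at 353 ± 71.9 CPM at ZT0 and 295 ± 46.5 at ZT12 (SD, n = 3 each). It did not pass (edgeR, Benjamini-Hochberg adjusted p = 0.130). With the library letter as a block its adjusted p was 0.0440, and with the index column as a block 0.166 (edgeR, Benjamini-Hochberg). With the index column as a block Cebpb, a transcription factor, and Tsc22d3, a glucocorticoid target, passed as well (adjusted p = 0.00345 against 0.484, and 0.0333 against 0.727). In position, 6 of the 11 were higher periportally, beside 11.9% of all genes, led by Ppargc1a at 1.73 ± 0.16 and Pck1 at 1.05 ± 0.07 (SE), and Cebpb and Tsc22d3 were higher pericentrally (12.7% of all genes were). Usp2 was not tested against these genes.

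The next gene downstream did not share the course of Usp2. Rnf26, a ubiquitin ligase gene on the minus strand whose annotated span begins 4 bases past the end of Usp2, stood between 4.69 and 6.99 CPM on average at the 4 times (24-h test adjusted p = 0.962, edgeR, Benjamini-Hochberg). Thy1, upstream, had 0 UMIs. The annotation also places Gm49380 and Gm39325 on the opposite strand over Usp2, and these were not analysed here. Whether counting used strand is not given in the sources used here, so UMIs from such an overlap cannot be told from Usp2.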

How the data were processed

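The authors deposited 1 table of UMI counts per library (genes by cells, whole numbers, not normalized). Per the submitters' processing notes, Cell Ranger was used and the builds mm10 and hg19 are named with no role. Further filters by the authors are not given in the sources used here; the tables hold cells of 1048 to 10001 UMIs with 8.7 to 34.44% mitochondrial counts. No further cells were removed, no doublets were called here, and 1 gene name (pisd) stands on more than 1 row, each kept as its own entry.

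Counts were summed per library, and per library and zone, each zone being 1 of 3 equal parts of the cell order. The order was the summed z-scores of 8 periportal minus 8 pericentral landmark genes, on log(1 + counts per 10000). Genes averaging 3 CPM or more were fitted in edgeR 4.0.16 (R 4.3.3, TMM scaling, quasi-likelihood): a 24-h cosine and sine over 10 libraries, and position with library as a block. Calls are Benjamini-Hochberg adjusted p under 0.05 over all genes fitted. limma 3.58.1 and DESeq2 1.42.0 were alternatives. Sign-change tests and figures used Python 3.11.15, numpy 2.4.6, scipy 1.17.1 and matplotlib 3.10.9. Depth was 1454623 to 7144803 UMIs per library.

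Tested on simulated data with 200 changed genes among 8908, the 24-h fit recovered 16% of amplitudes of 0.5 (log2), 93.5% of 1 and 100% of 2. The position fit recovered 64.5% of differences of 0.5 and 97.5% of 1 among 8923 genes, and the position by time fit 73.5% of amplitudes of 1 and 96% of 2.

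Same-lettered ZT0 and ZT12 libraries deviated together and share an index column, but the other same-lettered pairs mostly did not, so the letters were not taken as pairs. A fit with the index column as a block was added after the data were seen. Alternatives otherwise changed the normalization, tool, filter, cells, landmarks or libraries. Named genes were Usp2, the clock, substrate and glucose lists, the 10 closest profiles, the 5 deubiquitinases with the largest difference among those called, and genes next to Usp2. The result of 1 member of the substrate list is not reported here. The gene and the lists were chosen with earlier results of these data known. The split by Dbp was planned over 5 and over 10 libraries, and averaging within zones gave no value over 10 because some zones had no Dbp-positive cell. RefSeq and GENCODE M21 tables gave sequence and positions.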

Additional observations from a re-analysis of the deposited data

How the results depend on the processing

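Over 19 alternative settings the ZT12 minus ZT0 difference of Usp2 stayed between 3.58 and 4.26 on the log2 scale and its amplitude between 1.89 and 2.19, the same ranges as when leaving out each library in turn. Over 23 settings its position difference stayed below 0 (-0.39 to -0.01; -0.21 to -0.04 leaving out libraries) and passed no test (exact or adjusted p from 0.0547 to 0.989). Over 22 settings the position by time amplitude stayed at 0.37 to 0.54 with adjusted p from 0.726 to 1. The split of Usp2 by Dbp over 5 libraries reversed to 0.10 with cells as deposited, and ranged from -0.52 to -0.10 leaving out libraries; over 10 libraries it ranged from 1.19 to 2.0 (0.18 with cells as deposited). Thinning lowered the shares of cells by construction, and at 2000 UMIs per cell, over 3943, 1405, 2280 and 1327 cells from ZT0 to ZT18, they were 1.18%, 3.06%, 16.1% and 2.60%. Deubiquitinases called by position were 13, but 18 with library size alone, 7 with DESeq2, 8 among genes of at least 20 CPM, 8 with the outer eighths of cells and 7 with cells of at least 3000 UMIs (11 to 13 leaving out libraries); genes or cells are fewer in the last 3, and the cause of the first was not tested. Clock genes called were 13, but 8 at 20 CPM, where fewer were tested (11 to 13 leaving out libraries).

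The letters pair ZT0 and ZT12 libraries (r of their deviations across genes 0.239, 0.428 and 0.485 for A, B and C), but over the other same-lettered pairs r ran from -0.0427 to 0.110. With the replicate letter as a block, planned before this was checked, 749 genes (8.41%) passed the 24-h test against 458, among them 14 clock genes and 1 deubiquitinase, Usp18. The Usp2 ZT12 minus ZT0 difference was then 3.88, its amplitude 1.98 and its position by time amplitude 0.44 (adjusted p = 0.726). With the index column as a block, added after the data were seen, 623 genes (6.99%) passed, among them 14 clock genes and 1 deubiquitinase, Yod1. The Usp2 difference was then 3.90 and its amplitude 2.01. Since ZT18 has a column of its own, the 24-h course in that fit rests on ZT0, ZT6 and ZT12 alone. Among the listed genes that block added Per2, Yod1, Ccnd1, Cebpb and Tsc22d3, lost Fasn and changed no other call (edgeR, Benjamini-Hochberg).

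Few UMIs limit Usp2 at ZT0, ZT6 and ZT18, where 98, 104 and 112 were counted in all.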
